A study of Mus musculus with 18 samples.

Results

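Transcripts of 10 genes of the Notch pathway, 4 ligands (Dll1, Dll3, Jag1 and Jag2), 3 receptors (Notch1, Notch3 and Notch4) and 3 members of the HES and HEY families of repressors (Hes1, Hes6 and Hey1), were followed in mouse ES cells grown in 3D culture. They were chosen by symbol from the 49671 genes of the count table through the GRCm38 annotation, with earlier results of these data known, and all 10 were found and passed the filter on low counts in every comparison.

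Notch receptors are membrane proteins that are activated by Delta-like and Jagged ligands on neighbouring cells. Ligand binding leads to cleavage of the receptor by ADAM proteases and γ-secretase, and the released intracellular domain then acts in the nucleus with RBPJ and Mastermind-like proteins to switch on genes such as Hes1 and Hey1. In ES cells the pathway is known for promoting neural commitment rather than for maintaining the undifferentiated state.

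RNA was sequenced from 18 cultures embedded in Matrigel, 3 in each of 6 groups, all of which had been maintained beforehand in 2i with Lif. Wild-type E14 ES cells at passage 20 were cultured for 48 h in N2B27 medium with the solvent DMSO, with 3 µM of the Gsk3 inhibitor CHIR99021 (CH), with 2i (3 µM CHIR99021 and 0.4 µM of the Mek inhibitor PD0325901), or with Activin A at 20 ng/ml and Fgf2 at 12 ng/ml (Fgf2/Activin). The other line was Esrrb fl/fl at passage 25, in which a tamoxifen-inducible Cre (MerCreMer) deletes the gene of the naive transcription factor Esrrb. It was kept for 1 day without 4OHT (Esrrb NT) or with 4OHT (Esrrb 4OHT) and then cultured for 24 h in 3 µM CHIR99021, so that both of its groups carried the floxed alleles and the Cre and received the Gsk3 inhibitor. No group received 4OHT without floxed Esrrb, so exposure to 4OHT and active Cre cannot be told apart from loss of Esrrb. The labels give the strain of the E14 cells as 12910la and that of the Esrrb line as Acr-EGFP transgenic mice, and each genotype is represented by a single line. Nothing in the labels says whether the 3 replicates of a group were separate experiments, so p-values measure the spread between these libraries only.

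Libraries held 25388139 to 37158661 gene counts in E14 cells and 19915222 to 20140699 in the Esrrb line. Levels are given as CPM, read counts scaled to library size with TMM factors over the 18 libraries, and differences as log2 fold changes ± SE from edgeR's quasi-likelihood test. Genes were called where the p adjusted by Benjamini-Hochberg was under 0.01 and the log2 fold change was beyond 1 in either direction. Esrrb itself had 144, 111 and 109.9 CPM in Esrrb NT and 58.1, 62.7 and 58.7 CPM in Esrrb 4OHT, a difference of -0.99 ± 0.10 (edgeR adjusted p = 7.44e-05) that was just under the minimum fold. Undeleted cells and reads outside the floxed segment cannot be told apart. Replicate 1 stood apart from replicates 2 and 3 in all 6 groups: the chi-square per gene between libraries was 11.8 to 65.9 where replicate 1 was one of the pair and 1.46 to 8.57 between replicates 2 and 3. Dll1, Notch3, Hes1 and Hes6 were highest and Jag1 was lowest in replicate 1 in each of the 4 E14 groups. Between E14 and the Esrrb line the genotype, passage and culture time all differ, so no test was made across them. The 4 comparisons in E14 cells share their libraries, each group being used in 2 of them.

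Sequence before the start of the genes was read from RefSeq's table (GRCm38.p6), in which 8 of the 10 genes had 10 starts; Hes1 and Hey1 were not matched. The hexamer CACGNG is a letter pattern bound by HES and HEY proteins. It stood on either strand in the 250 bases before 5 of these 10 starts, against 23.5% of 32851 promoters. These starts belong to Hes6, Jag1, Notch3 and Dll1. Both starts of Dll1 held the pattern, and the other start of Hes6 did not. No test was made. The pattern CACNAG was found before 3 of the 10 starts (36.7% of all promoters). TGGGAA, the core of RBPJ sites (21.6%), TCAAAG, the core of TCF/LEF sites (13.8%), and AAGGTCA, the core of Esrrb sites (4.08%), were not in these windows. The stretches that hold CACGNG are shown for Hes6 (chr1:91414039-91414288), Jag1 (chr2:137116645-137116770) and Dll1 (chr17:15376933-15377182), the 3 of the 10 genes with the largest absolute log2 fold change between CH and DMSO, 5′ to 3′ on the minus strand and outside the annotated gene. Capitals mark CACGNG or its reverse complement.
Hes6: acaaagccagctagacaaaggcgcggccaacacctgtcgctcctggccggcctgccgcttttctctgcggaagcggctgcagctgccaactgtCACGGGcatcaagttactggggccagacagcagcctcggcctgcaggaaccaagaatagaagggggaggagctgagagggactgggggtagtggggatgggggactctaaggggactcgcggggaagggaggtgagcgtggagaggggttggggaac
Jag1: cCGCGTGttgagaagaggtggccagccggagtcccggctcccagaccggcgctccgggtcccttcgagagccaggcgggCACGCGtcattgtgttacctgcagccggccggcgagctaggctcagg
Dll1: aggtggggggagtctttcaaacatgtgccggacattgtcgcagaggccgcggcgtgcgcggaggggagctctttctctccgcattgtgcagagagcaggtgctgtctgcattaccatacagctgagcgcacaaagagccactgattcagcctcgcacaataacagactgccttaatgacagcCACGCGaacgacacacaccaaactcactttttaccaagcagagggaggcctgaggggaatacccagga
In Hes6 the match began 157 bases before the start, in Jag1 the matches began 249 and 171 bases before it, and in Dll1 68 bases before its upstream start. Only 126 bases are shown for Jag1, because the rest of its window lies within the gene as GENCODE annotates it. An exon of A930024N18Rik, a gene on the opposite strand, overlaps the stretch of Dll1.

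The ligands changed in opposite directions between cultures. Jag1 was high wherever CHIR99021 was given without 4OHT, and Dll1, Dll3 and Jag2 were low in 2i. Dll1 (chr17:15367354-15376872, minus strand), a ligand that activates Notch on adjacent cells, had 39.2, 30.9 and 21.3 CPM in DMSO, 9.19, 5.91 and 3.92 CPM in CH, and 2.93, 1.71 and 1.78 CPM in 2i. It had 12.98, 11.3 and 10.7 CPM in Fgf2/Activin, 4.18, 7.04 and 6.46 CPM in Esrrb NT and 11.2, 12.0 and 13.5 CPM in Esrrb 4OHT. DMSO stood above every other group and 2i below every other group, while Esrrb 4OHT overlapped with Fgf2/Activin and CH with Esrrb NT. By edgeR's quasi-likelihood test Dll1 fell by 2.26 ± 0.32 on the log2 scale from DMSO to CH (adjusted p = 2.28e-04) and rose by 1.09 ± 0.18 with 4OHT (adjusted p = 0.00104). Without replicate 1 of Esrrb NT the latter was 0.89, below the minimum fold. Exons shared with A930024N18Rik make up 20.5% of its exon length, and as counting ignored strand, reads there cannot be told apart; that gene itself had at most 6 reads in any library. In bulk RNA, fewer cells that express a gene and less RNA per cell cannot be told apart, here or for any gene below.

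Dll3 (chr7:28293553-28302238, minus strand), a divergent ligand that does not activate Notch on neighbouring cells and can inhibit it within the cell, had its highest levels in Esrrb 4OHT. Its levels were 2.14, 3.52 and 4.06 CPM in Esrrb NT and 24.9, 41.5 and 41.7 CPM in Esrrb 4OHT. In E14 cells it had 11.9, 15.9 and 12.6 CPM in DMSO, 8.58, 11.9 and 7.35 CPM in CH, 1.98, 1.33 and 1.41 CPM in 2i, and 15.2, 17.996 and 17.2 CPM in Fgf2/Activin. The Esrrb groups did not overlap, although replicate 1 of Esrrb 4OHT lay well below the other libraries of its group, and 2i lay below every other group. Dll3 rose by 3.51 ± 0.27 with 4OHT, which was the largest log2 fold change among the 10 genes in that comparison (edgeR adjusted p = 1.56e-05). It fell by 2.56 ± 0.23 when PD0325901 was added to CH, from CH to 2i (edgeR adjusted p = 1.75e-04), whereas the difference between CH and DMSO was -0.54 ± 0.21 (edgeR adjusted p = 0.056).

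Jag1 (chr2:137081456-137116644, minus strand), a Jagged ligand of the same receptors, had 9.90, 11.3 and 10.05 CPM in DMSO, against 43.8, 62.9 and 58.7 CPM in CH and 54.0, 61.9 and 61.8 CPM in 2i. In Fgf2/Activin it had 15.9, 21.2 and 20.1 CPM. The groups with CHIR99021 lay above both groups without it, and CH and 2i overlapped. In the Esrrb line it had 70.8, 56.4 and 61.4 CPM without 4OHT and 11.9, 17.0 and 17.1 CPM with it, a range that overlapped with Fgf2/Activin in E14 cells. Jag1 rose by 2.41 ± 0.16 from DMSO to CH (edgeR adjusted p = 8.85e-07) and fell by 2.00 ± 0.14 with 4OHT (edgeR adjusted p = 1.21e-05). The difference of 0.87 ± 0.15 between Fgf2/Activin and DMSO passed the adjusted p but not the minimum fold (edgeR adjusted p = 0.00797).

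Jag2 (chr12:112907819-112929776, minus strand), the paralogue of Jag1, was called in the opposite direction to Jag1 between CH and DMSO and between 2i and Fgf2/Activin. It had 48.3, 44.5 and 41.6 CPM in DMSO, 22.0, 19.4 and 17.5 CPM in CH, 9.16, 11.4 and 10.2 CPM in 2i, and 49.98, 56.0 and 54.5 CPM in Fgf2/Activin. CH lay below DMSO, and 2i below CH, with no overlap. In cells of the Esrrb line Jag2 had 19.0, 20.9 and 20.0 CPM without and 43.6, 33.4 and 38.1 CPM with 4OHT. It fell by 1.19 ± 0.11 from DMSO to CH (edgeR adjusted p = 1.25e-05). The difference of 0.98 ± 0.10 with 4OHT fell just short of the minimum fold (edgeR adjusted p = 8.03e-05), and it was 1.06 without replicate 2 of Esrrb 4OHT and 1.00 without replicate 2 of Esrrb NT.

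**Figure D1:**
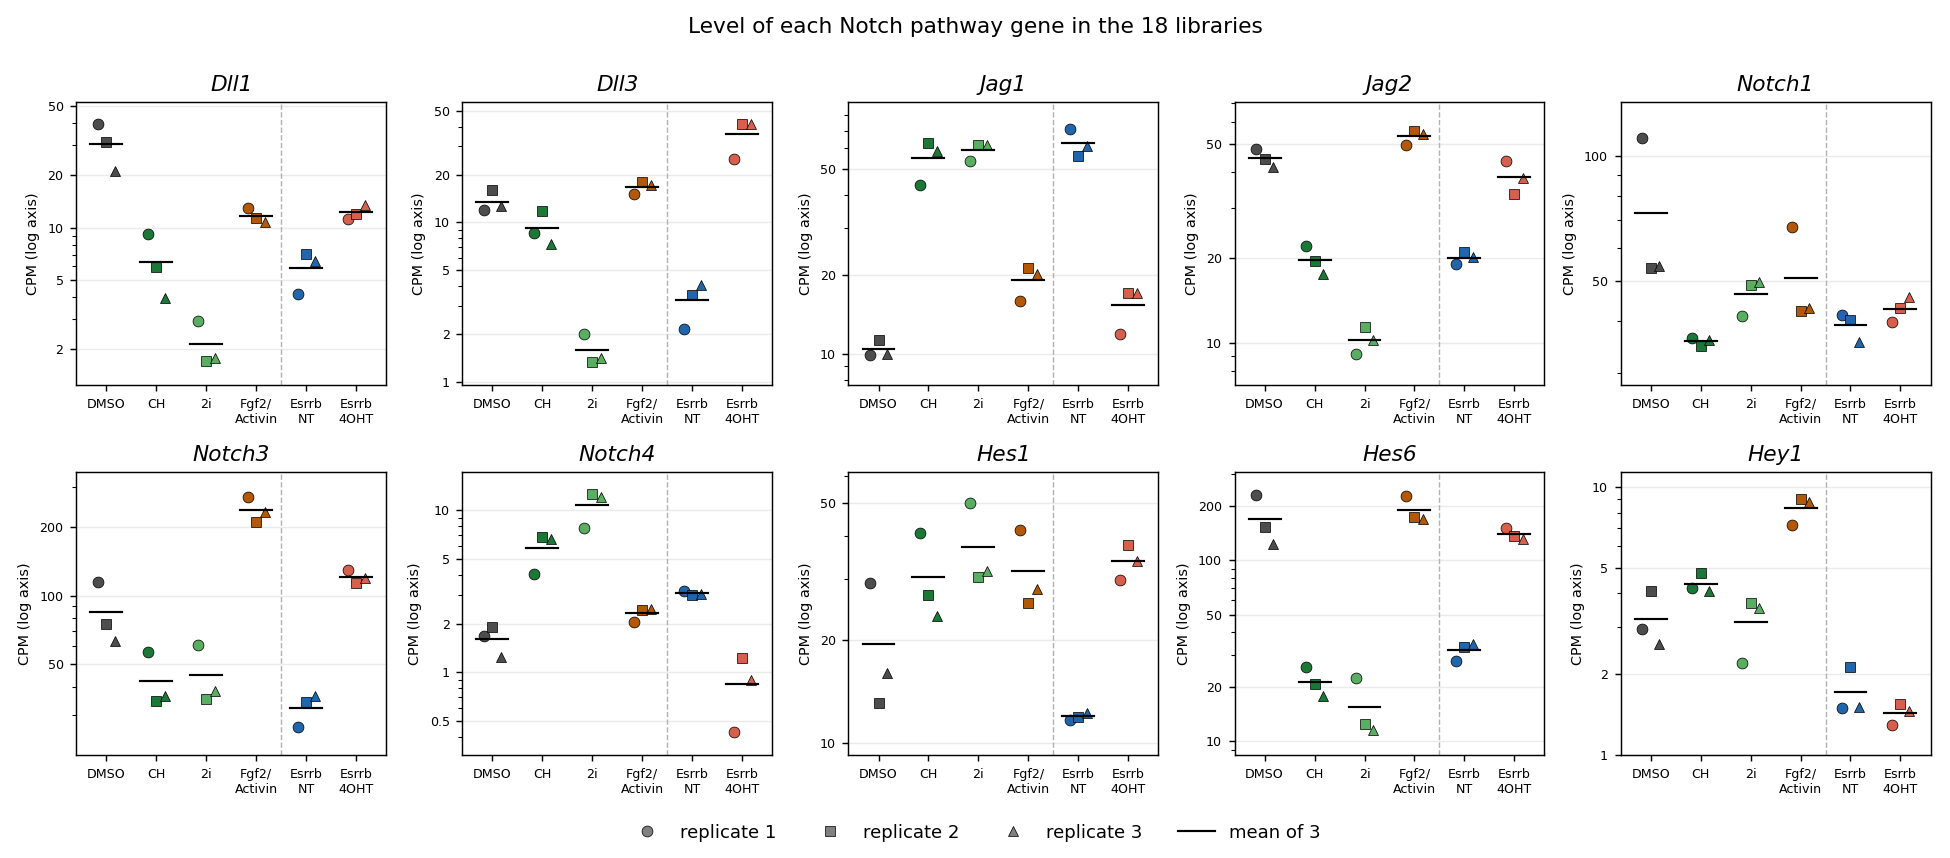
Level of each of the 10 genes in CPM (log axis) in the 18 libraries, 1 panel per gene, with the symbol giving the replicate, the bar the mean of 3 libraries and the dashed line parting E14 cells from the Esrrb line. Jag1 is high and Hes6 is low in CH, 2i and Esrrb NT. Notch4 is high in CH and 2i, and in Esrrb NT it lies between CH and Fgf2/Activin.

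Per kilobase of exon, the make-up of the ligand mRNA shifted with the culture. Exon length was that of the merged exons of all annotated transcripts. It can exceed the transcript expressed and so understate a gene's share. For Notch1 it was 14232 bases, against 9488 in the longest transcript, and for Notch3 8089 against 8016. The summed level of the 5 ligands Dll1, Dll3, Dll4, Jag1 and Jag2 was 20.7 ± 2.72 CPM per kb in DMSO, 17.1 ± 1.82 in CH, 12.7 ± 0.626 in 2i and 19.7 ± 1.22 in Fgf2/Activin (SD, n = 3). Jag1 made up 8.72% ± 1.17 of that sum in DMSO, 55.4% ± 7.596 in CH, 79.9% ± 2.33 in 2i and 16.5% ± 1.51 in Fgf2/Activin. Dll1 was the largest share in DMSO with 34.3% ± 6.12, beside Jag2 with 31.2% ± 2.32, and their ranges over the libraries overlapped. In the Esrrb line the sum was 16.2 ± 0.508 CPM per kb without and 23.8 ± 3.55 with 4OHT. There Jag1 made up 66.3% ± 5.86 without 4OHT and Dll3 52.5% ± 7.19 with it, when Jag1 was at 11.01% ± 0.620. These shares are descriptions without a test.

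**Figure D2:**
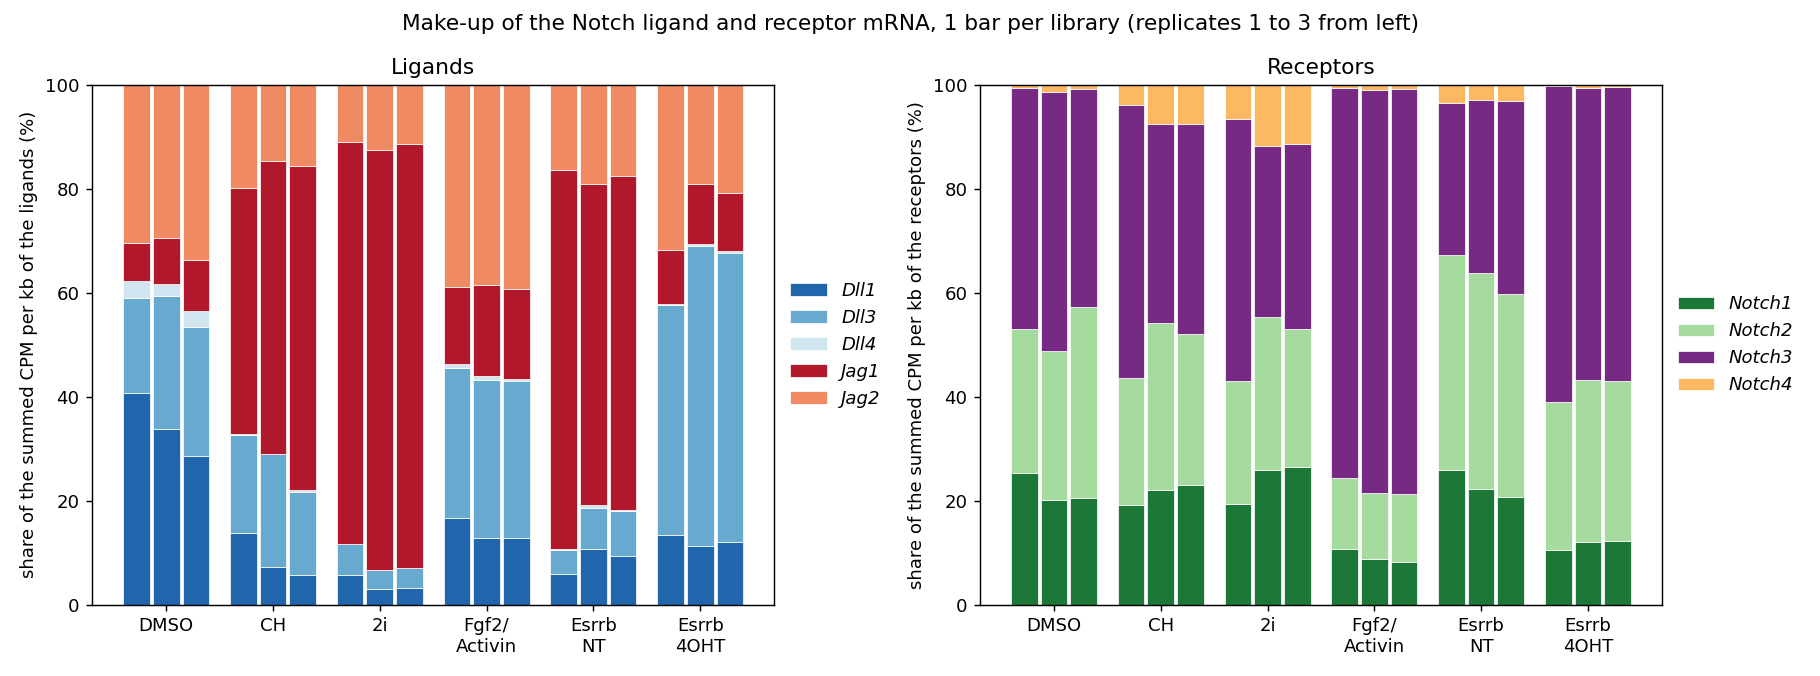
Share of each ligand (left) and receptor (right) in the summed CPM per kb of its family in %, with 1 bar per library and replicates 1 to 3 from left to right in each group. Jag1 is the largest ligand share in CH, 2i and Esrrb NT, and Notch3 takes 76.8% of the receptor sum in Fgf2/Activin.

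Among the receptors, Notch3 and Notch4 changed in opposite directions between 2i and Fgf2/Activin and with 4OHT, and Notch1 was called in 1 comparison. Notch1 (chr2:26457903-26516663, minus strand), the receptor best known from early development, had 111, 53.7 and 54.4 CPM in DMSO, 36.3, 34.9 and 36.1 CPM in CH, 41.2, 49.0 and 49.7 CPM in 2i, and 67.5, 42.3 and 43.0 CPM in Fgf2/Activin. In the Esrrb line it had 41.4, 40.2 and 35.7 CPM without and 39.8, 42.9 and 45.8 CPM with 4OHT. Replicate 1 of DMSO was about as high as the other 2 DMSO libraries together, and all neighbouring groups in the order of means overlapped. Notch1 was called lower in CH than in DMSO (-1.03 ± 0.27, edgeR adjusted p = 0.00972). That call was lost without replicate 1 of DMSO, at -0.59, and with replicate numbers fitted as a block, at -0.97 (edgeR adjusted p = 0.00275). Without replicate 1, 2 or 3 of CH it was -1.04, -1.01 and -1.01, with edgeR adjusted p of 0.024, 0.0335 and 0.0307, and with only the DMSO and CH libraries the edgeR adjusted p was 0.031, so the call was lost there too. With 4OHT the difference was 0.17 ± 0.08 (edgeR adjusted p = 0.107). Exons shared with 0610009E02Rik and Gm13568 on the opposite strand cover 9.76% of its exon length; these genes had at most 17 and 0 reads in a library.

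Notch3 (chr17:32120820-32166852, minus strand), a receptor known from vascular smooth muscle, had its highest levels in Fgf2/Activin, with 270.4, 211 and 233 CPM. It had 115, 75.3 and 63.3 CPM in DMSO, 56.5, 34.6 and 36.3 CPM in CH, and 60.98, 35.3 and 38.2 CPM in 2i. Fgf2/Activin stood above every other group, and CH and 2i overlapped. For Notch3, cells with floxed Esrrb had 26.5, 34.2 and 36.3 CPM without and 129.9, 113 and 120.0 CPM with 4OHT. It rose by 1.94 ± 0.11 with 4OHT (edgeR adjusted p = 4.81e-06) and fell by 2.41 ± 0.28 from Fgf2/Activin to 2i (edgeR adjusted p = 3.67e-05). The difference of 1.49 ± 0.27 between Fgf2/Activin and DMSO missed the threshold (edgeR adjusted p = 0.0102) and was called with replicate numbers fitted as a block, at 1.53 (edgeR adjusted p = 6.84e-06), and without replicate 1 of DMSO, at 1.78 (edgeR adjusted p = 0.00564), as well as with DESeq2's test, its size factors or no filter on low counts. That of -0.99 ± 0.27 between CH and DMSO was not called (edgeR adjusted p = 0.0126), also not with the block, at -0.99 (edgeR adjusted p = 1.59e-05), but was without replicate 1 of CH, at -1.25, or replicate 3 of DMSO, at -1.16. Gm17276 on the opposite strand overlaps 6.03% of its exon length and had at most 11 reads in a library.

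Notch4 (chr17:34564268-34588503, plus strand), a receptor best known from endothelial cells, was highest in 2i. It had 1.69, 1.91 and 1.24 CPM in DMSO, 4.05, 6.79 and 6.64 CPM in CH, 7.77, 12.7 and 12.0 CPM in 2i, and 2.05, 2.43 and 2.47 CPM in Fgf2/Activin. The values in the Esrrb line were 3.16, 3.00 and 3.02 CPM without and 0.432, 1.22 and 0.892 CPM with 4OHT. From 2i down through CH, Esrrb NT, Fgf2/Activin and DMSO to Esrrb 4OHT, no neighbouring groups overlapped. Notch4 rose by 1.85 ± 0.27 from DMSO to CH (edgeR adjusted p = 2.58e-04) and fell by 1.80 ± 0.30 with 4OHT (edgeR adjusted p = 8.97e-04). Per kilobase, Notch4 made up 0.924% ± 0.307 of the 4 receptors in DMSO, 9.86% ± 2.95 in 2i and 0.411% ± 0.203 in Esrrb 4OHT (SD, n = 3). Notch3 made up 46.0% ± 4.03 in DMSO, 76.8% ± 1.57 in Fgf2/Activin, 33.2% ± 4.00 in Esrrb NT and 57.8% ± 2.56 in Esrrb 4OHT.

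Hes6 carried the largest difference between CH and DMSO among the 10 genes, and Hes1 was called in 1 comparison only. Hes1 (chr16:30064384-30067796, plus strand), the repressor that Notch activation classically induces, had 29.2, 13.1 and 16.0 CPM in DMSO, 41.0, 27.0 and 23.5 CPM in CH, 49.8, 30.4 and 31.8 CPM in 2i, and 41.6, 25.6 and 28.1 CPM in Fgf2/Activin. All 4 E14 groups overlapped with their neighbours in order of the mean, but each CH, 2i and Fgf2/Activin library lay above the DMSO library of the same replicate number. In the Esrrb line it had 11.7, 11.9 and 12.2 CPM without 4OHT and 29.8, 37.6 and 34.0 CPM with it, which did not overlap. Hes1 rose by 1.54 ± 0.10 with 4OHT (edgeR adjusted p = 8.77e-06). The difference between CH and DMSO was 0.65 ± 0.33 (edgeR adjusted p = 0.137), and with replicate numbers fitted as a block it was 0.69 and passed the adjusted p but not the minimum fold (edgeR adjusted p = 2.07e-04). Between Fgf2/Activin and DMSO it was 0.71 ± 0.33 (edgeR adjusted p = 0.313), and 0.75 with the block, again under the minimum fold (edgeR adjusted p = 9.24e-04).

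Hes6 (chr1:91411483-91414038, minus strand), a relative of Hes1 that counters it and promotes neuronal differentiation, had 230.5, 153 and 123 CPM in DMSO and 228, 173 and 169 CPM in Fgf2/Activin. In CH it had 25.6, 20.6 and 17.8 CPM and in 2i 22.5, 12.5 and 11.5 CPM. The lowest library without CHIR99021 lay far above the highest with it in E14 cells, and CH and 2i overlapped. With the floxed alleles, Hes6 had 27.6, 33.3 and 34.5 CPM without and 151, 136 and 131 CPM with 4OHT, the latter within the range of DMSO in E14 cells. It fell by 2.98 ± 0.30 from DMSO to CH (edgeR adjusted p = 1.86e-05) and rose by 2.17 ± 0.09 with 4OHT (edgeR adjusted p = 1.37e-06).

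Hey1 (chr3:8663359-8667256, minus strand), a repressor that Notch also induces, was low throughout. It had 2.94, 4.07 and 2.59 CPM in DMSO, 4.19, 4.77 and 4.08 CPM in CH, 2.19, 3.69 and 3.53 CPM in 2i, and 7.19, 8.98 and 8.80 CPM in Fgf2/Activin. The values in the Esrrb line were 1.501, 2.12 and 1.51 CPM without and 1.30, 1.55 and 1.45 CPM with 4OHT. Fgf2/Activin stood above every other group, and the Esrrb groups overlapped. Hey1 was called higher in Fgf2/Activin than in DMSO, by 1.37 ± 0.23 (edgeR adjusted p = 0.00672). The call was lost without replicate 1, 2 or 3 of Fgf2/Activin, at 1.47, 1.32 and 1.33, without replicate 1 or 3 of DMSO, at 1.31 and 1.25, and with only these 6 libraries, at 1.38 (edgeR adjusted p = 0.0265).

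The first comparison asked how the genes responded to the Gsk3 inhibitor. Of the 10 genes, 6 were called between CH and DMSO, where 17.7% of 16413 genes tested were called: Jag1 and Notch4 were higher (7.51% of all genes were), and Hes6, Dll1, Jag2 and Notch1 lower (10.2% were). In 9 of the 10 the groups did not overlap, as for 49.6% of all genes. With no minimum fold the same 6 passed, as did 28.9% of all genes. The naive pluripotency list was called higher for 11 of 11 genes in CH, with summed levels of 104 to 264 CPM in DMSO and 1679 to 1853 CPM in CH. The primitive streak list, called higher for 6 and lower for 1 of 10 tested, summed to 10.5 to 16.1 CPM in DMSO and 491 to 746 CPM in CH. Most of the latter was T, at 534 CPM in CH, while Gsc, Mesp1 and Msgn1 had at most 3 reads per library in CH. The neural list was called lower for 3 of 8 tested and summed to 131 to 188 CPM in DMSO and 25.6 to 51.5 CPM in CH. The formative list was called lower for 7 of 9 and summed to 3627 to 5286 CPM in DMSO and 835 to 1475 CPM in CH. Among genes of other cell types, 3 of 7 tested of primitive endoderm, 3 of 4 of trophectoderm and 2 of 3 of fibroblasts were called in either direction. The part of these cell states in the differences of the Notch genes was not tested.

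The addition of the Mek inhibitor to CH left fewer differences. Between 2i and CH, 1 of the 10 genes was called, Dll3, where 1.99% of all genes were called (1.67% lower), and the groups did not overlap in 6 of 10 (25.9% of all genes). Dll1 was -1.58 ± 0.33 in this comparison (edgeR adjusted p = 0.0163), and was called at -1.55 with replicate numbers fitted as a block (edgeR adjusted p = 2.90e-04), which made 2 genes called. Over all 16413 genes 672 were called with the block, against 326 without it. Dll1 was also called without replicate 3 of CH, at -1.83. Jag2 passed the adjusted p with -0.94 ± 0.11 but not the minimum fold (edgeR adjusted p = 9.20e-04), and was called without replicate 2 of 2i, at -1.01, or replicate 3 of CH, at -1.02. With no minimum fold 2 genes passed, Dll3 and Jag2, as did 2.83% of all genes. Jag1, which differed between CH and DMSO, was at 0.10 ± 0.15 (edgeR adjusted p = 0.805). The primitive streak list was called lower for 5 of 10 tested, from 491 to 746 CPM in CH to 99.5 to 135 CPM in 2i, with T at 534 and 91.0 CPM. The naive list was called higher for 1 of 11 and the neural list lower for 1 of 8, and the part of these lists was not tested.

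The other comparison with DMSO, which shares those 3 DMSO libraries with the first, asked what Fgf2 and Activin add. Hey1 alone was called of the 10 genes, with 1.25% of all genes called (0.902% higher and 0.347% lower), and the groups did not overlap in 6 of 10 (24.3% of all genes). With replicate numbers fitted as a block 3 were called, Hey1, Notch3 and Dll1, of which Dll1 was lower at -1.34 (edgeR adjusted p = 2.56e-04) and at -1.38 ± 0.31 without the block (edgeR adjusted p = 0.0283). Over all 16413 genes 424 were called with the block, against 205 without it. With no minimum fold 2 genes passed, Hey1 and Jag1, as did 1.8% of all genes. Hes6 differed by 0.17 ± 0.27 (edgeR adjusted p = 0.838).

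Between 2i and Fgf2/Activin, the reference cultures of the naive and the advanced state, 8 of 10 genes were called, where 23.5% of all genes were called. Jag1 (1.64 ± 0.15) and Notch4 (2.22 ± 0.27) were higher in 2i, as were 9.13% of all genes. The 6 lower genes were Hes6 (-3.61 ± 0.31), Dll3 (-3.41 ± 0.23), Dll1 (-2.45 ± 0.34), Notch3 (-2.41 ± 0.28), Jag2 (-2.38 ± 0.12) and Hey1 (-1.40 ± 0.23), with edgeR adjusted p of 4.46e-04 at most, while 14.4% of all genes were called lower. With no minimum fold the same 8 passed, as did 37.7% of all genes. The groups did not overlap in these 8, as for 63.1% of all genes. Hes1 (0.23 ± 0.33) and Notch1 (-0.13 ± 0.27) were not called, with edgeR adjusted p of 0.58 and 0.721. The cell state lists moved as well: the naive list was called higher in 2i for 11 of 11 (127 to 204 CPM in Fgf2/Activin and 2670 to 2900 CPM in 2i) and the formative list lower for 7 of 9. The primitive streak list was called higher for 3 and lower for 2 of 10 and the neural list lower for 3 of 8, and their part was not tested.

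The comparison with and without 4OHT, in the presence of CHIR99021, had its own line and its own controls. Of the 10 genes, 7 were called between Esrrb 4OHT and Esrrb NT, where 16.7% of 14893 genes tested were called: Dll3, Hes6, Notch3, Hes1 and Dll1 were higher (12.8% of all genes were) and Jag1 and Notch4 lower (3.87% were). The groups did not overlap in 8 of 10, as for 66.5% of all genes. With no minimum fold Jag2 passed as well, which made 8, as did 44.5% of all genes. The naive list was called lower for 3 of 11, with summed levels of 919.6 to 1165 CPM without and 507 to 578 CPM with 4OHT. The formative list was called higher for 1 and lower for 1 of 9, with sums of 1522 to 2049 CPM without and 961 to 1385 CPM with 4OHT. The primitive streak list was called higher for 6 of 9 tested and summed to 114 to 136 CPM without and 503 to 625 CPM with 4OHT, again mostly T at 396 CPM, with Gsc and Msgn1 at 3 reads or fewer. The neural list was called higher for 2 and lower for 2 of 5 tested, and its sum of 51.7 to 54.6 CPM without and 212 to 215 CPM with 4OHT was mostly Nes, at 204 CPM. Of the other cell types, 3 of 4 genes tested of primitive endoderm, 2 of 5 of trophectoderm and 3 of 3 of fibroblasts were called in either direction. Neurog1, Neurog2 and Neurod4 had at most 3 reads per library with 4OHT. The part of these cell states was not tested here either.

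**Figure D3:**
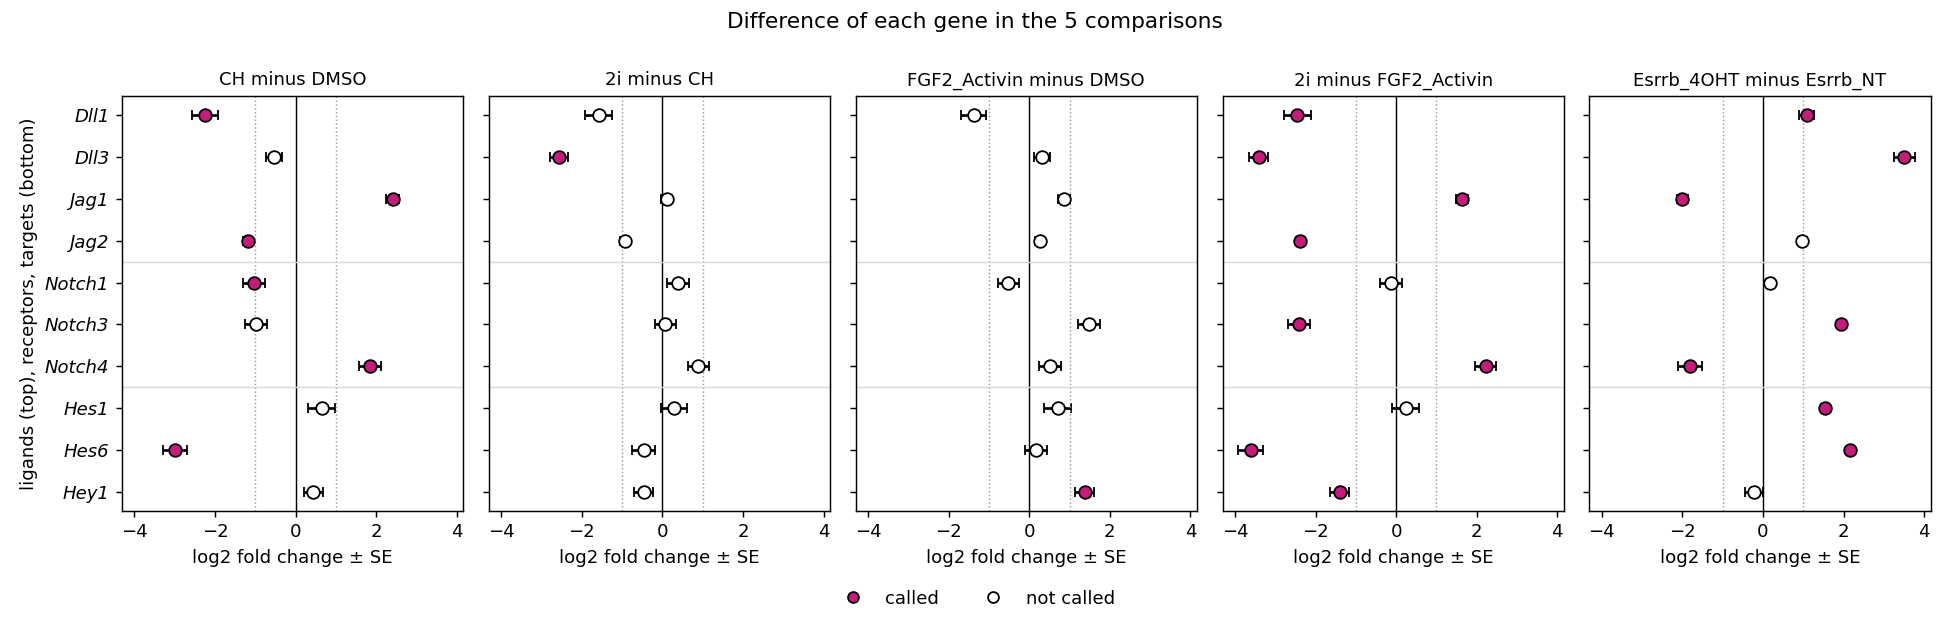
Log2 fold change ± SE of each of the 10 genes in the 5 comparisons, with filled points for called genes, open points for the others and dotted lines at the minimum fold. Jag1 and Notch4 lie to the right and Hes6, Dll1 and Jag2 to the left in CH minus DMSO, and Hes6, Dll3 and Notch3 lie to the right in Esrrb_4OHT minus Esrrb_NT.

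Among 45 other genes of the pathway and its target families, 41 were tested in E14 cells and 37 in the Esrrb line. Between CH and DMSO 3 were called higher and 7 lower, or 24.4% of those tested, against 17.7% of all genes (7.51% higher and 10.2% lower). Maml2, a Mastermind-like coactivator, had 0.375, 1.06 and 1.12 CPM in DMSO and 5.55, 8.20 and 8.99 CPM in CH, and Neurl1a, a Neuralized ubiquitin ligase that acts on ligands, rose by 1.22 ± 0.16 (edgeR adjusted p = 1.14e-04). Hes7, the oscillating repressor of the segmentation clock, had 1, 3 and 3 reads in DMSO, 23, 41 and 28 in CH and 2, 0 and 2 in 2i, too few for a fold. Dll4, a ligand best known from endothelium, had 107, 60 and 52 reads in DMSO and 2, 1 and 4 in CH. Dtx4, of the Deltex family of ubiquitin ligases, fell by 3.00 ± 0.29 and Dlk1, a non-canonical ligand, by 2.47 ± 0.47 (edgeR adjusted p of 1.30e-05 and 0.00146). Notch2, the fourth receptor, fell by 1.04 ± 0.17 (edgeR adjusted p = 4.73e-04).

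Between 2i and CH 3 of these genes were called, all lower: Neurl1a (-1.11 ± 0.16) and the Fringe glycosyltransferase gene Mfng (-1.64 ± 0.30), beside Hes7 (edgeR adjusted p of 0.00193, 0.00743 and 0.00103). They were 7.32% of those tested, against 1.99% of all genes. With the block 5 were called, beside 672 of all 16413 genes. Between Fgf2/Activin and DMSO only Dtx3l, another Deltex gene, was called, at 2.22 ± 0.25 (edgeR adjusted p = 4.78e-04). That was 2.44% of those tested, against 1.25% of all genes. With the block 3 were called, beside 424 of all 16413 genes. The ligand gene Dll4 was at -2.14 ± 0.42 in that comparison and was not called (edgeR adjusted p = 0.014). Between 2i and Fgf2/Activin 2 were higher, Maml2 (5.11 ± 0.43) and the Fringe gene Rfng (1.27 ± 0.16), and 9 lower, with Mfng (-4.80 ± 0.29) and Dtx4 (-3.88 ± 0.30) among them, in all 26.8% of those tested, against 23.5% of all genes. Mfng was low, with a mean of 0.237 CPM in 2i, 0.761 CPM in CH and 6.84 CPM in Fgf2/Activin. Dlk1 was lower too, with 2, 3 and 0 reads in 2i against 51, 82 and 67 in Fgf2/Activin, as was Dll4, with 2, 1 and 0 reads against 17, 21 and 9.

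With 4OHT 7 of the 37 were called, all of them higher. That was 18.9% of those tested, against 16.7% of all genes, of which 12.8% were higher. Without the minimum fold 25 passed in either direction, as did 44.5% of all genes. The 7 were led by Aph1b, a γ-secretase subunit (3.70 ± 0.37, 3.98, 3.57 and 3.99 CPM with 4OHT against 0.0536, 0.466 and 0.365 CPM without), Dtx4 (2.34 ± 0.33) and Maml3 (2.102 ± 0.36). Adam10, the protease that makes the first cut of ligand-bound Notch, was also higher (1.05 ± 0.08, edgeR adjusted p = 1.94e-05). Notch2 differed by 0.71 ± 0.07 and Nrarp, a feedback inhibitor induced by Notch, by 0.88 ± 0.23, both below the minimum fold. Rbpj, the DNA-binding partner of Notch, had a log2 fold change of 0.14 in each of the 4 E14 comparisons (SE 0.29, adjusted p by edgeR 0.722 to 0.877) and of -0.41 ± 0.05 with 4OHT (edgeR adjusted p = 2.64e-04), and was called in none of the 5. Nrarp was called once, lower in 2i than in Fgf2/Activin (-1.09 ± 0.29, edgeR adjusted p = 0.00821). The Notch targets Hes5 and Heyl had at most 12 and 5 reads in any library. Of the Groucho corepressors that HES proteins recruit, 6 of 7 listed were measured: Tle2 was called lower in CH than in DMSO (-2.01 ± 0.40, at 0.106 against 0.441 CPM), and Tle6 (-1.72 ± 0.20) and Tle4 (-1.29 ± 0.11) lower with 4OHT.

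**Figure D4:**
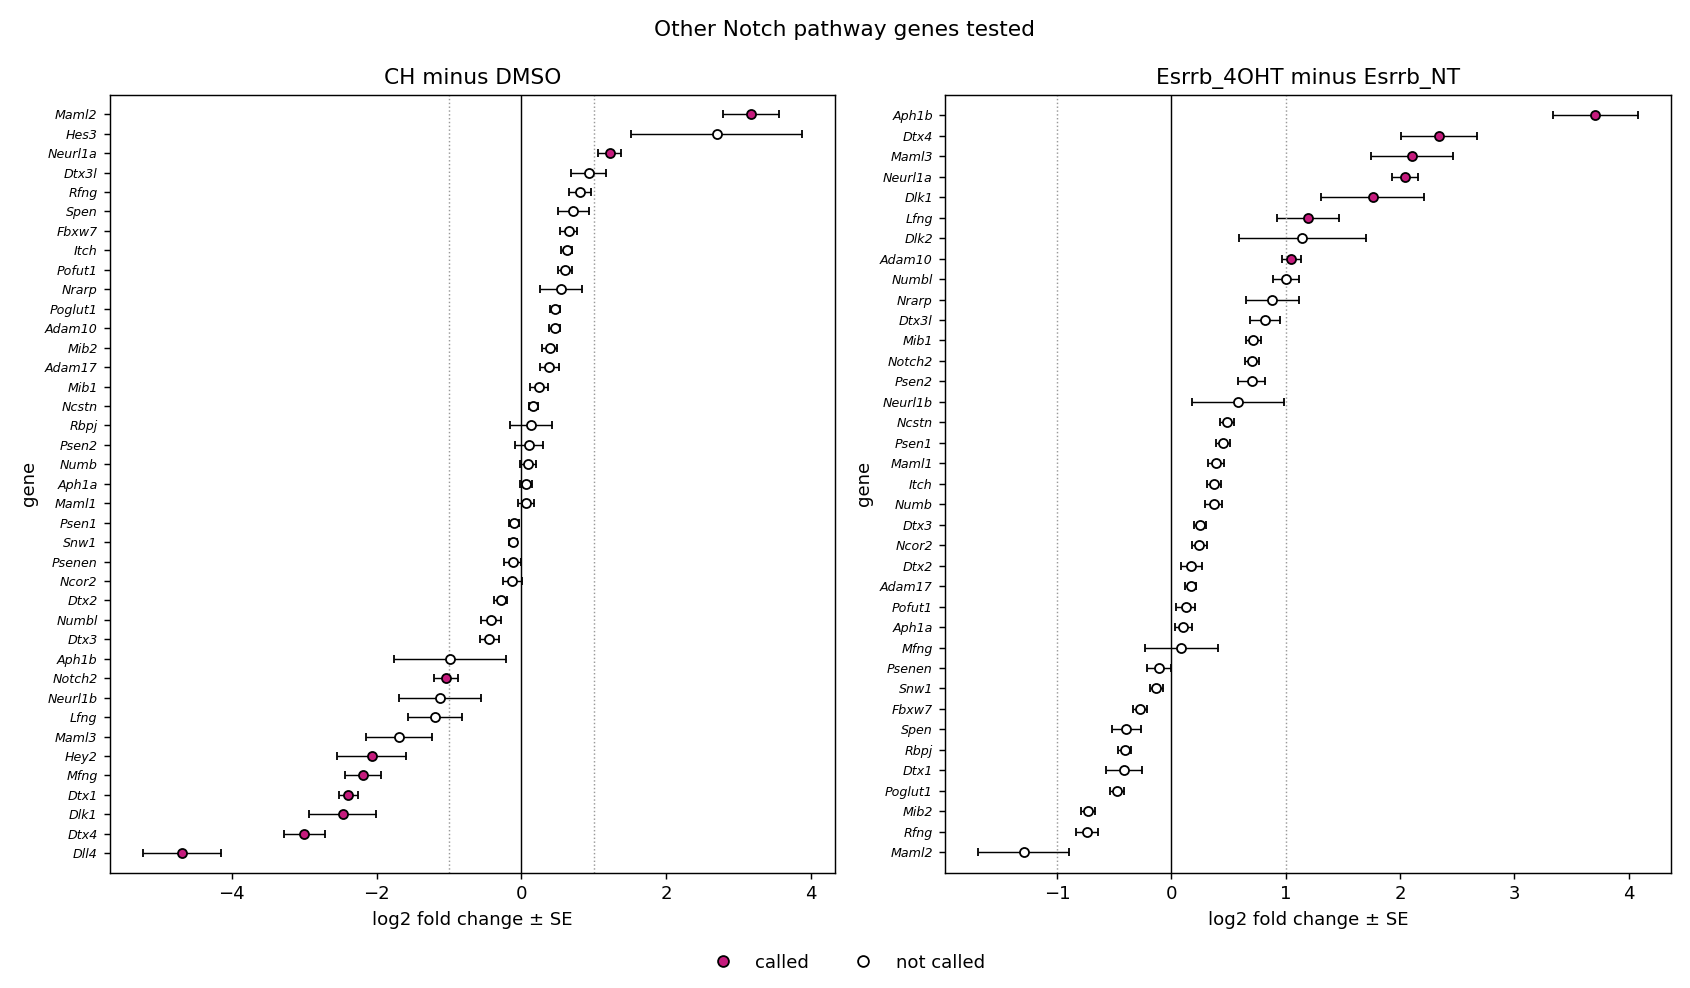
Log2 fold change ± SE of the other Notch pathway genes tested, ordered by value, in CH minus DMSO (39 genes, left, without Hes2 and Hes7, which had at most 3 reads in every library of a group) and in Esrrb_4OHT minus Esrrb_NT (37 genes, right), with filled points for called genes and dotted lines at the minimum fold. Most genes of the pathway lie between the dotted lines in both comparisons.

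For each of the 10 genes, the gene with the pattern most like it was sought among the other 45 pathway genes, with the 10 themselves left out, and then among the other members. The measure was the root mean square difference of the 6 group means of log2(CPM + 1), each gene centred on its own mean. The closest pair was Notch1 with Dtx3, at 0.18 on the log2 scale, though Notch1 itself varied by only 0.30 around its mean. Jag2 was closest to Dlk1 (0.25), Hes1 to the ligand ubiquitin ligase Mib1 (0.33), Hey1 to Hes2 (0.52), Notch3 to Dlk1 (0.56) and Notch4 to Maml2 (0.59). The own variation of Jag2, Hes1, Hey1, Notch3 and Notch4 was 0.79, 0.55, 0.64, 0.99 and 0.88. Hey1 was thus little closer to Hes2 than to its own mean. Hes2 had at most 3 reads per library in CH, Esrrb NT and Esrrb 4OHT. Dlk1, Mfng and Maml3 were low as well, with means of 0.0527, 0.237 and 0.325 CPM in 2i. Maml2 had a mean of 0.399 CPM in Fgf2/Activin. The 1 CPM added before the logarithm shrinks the changes of genes at such levels. Between 2i and Fgf2/Activin Dlk1 differed by -5.26 ± 0.59, against -2.38 for Jag2 and -2.41 for Notch3. For the remaining 4 genes another member was closer than any of the 45. Dll1 was at 0.47 from Jag2 and 0.49 from Maml3, and Jag1 at 0.60 from Notch4 and 0.62 from Rfng. Dll3 was at 0.74 from Jag2 and 0.81 from Maml3. Hes6 was at 0.72 from Jag2 and 0.81 from Mfng.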

How the data were processed

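RNA sequencing of 18 libraries was used, 3 in each of 6 groups set by the sample titles. The authors aligned reads to mm10 with TopHat2, counted them per Ensembl gene of GRCm38 with HTSeq (strand ignored) and deposited the raw counts; the Ensembl release is not given in the sources used here. The libraries were directional, but overlapping genes on opposite strands were not separated by the counting.

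The 12 E14 libraries and the 6 of the Esrrb line were fitted separately with edgeR 4.0.16 in R 4.3.3 (filterByExpr, TMM, glmQLFit, glmQLFTest), with Benjamini-Hochberg adjustment over all genes tested, after a check on simulated counts. DESeq2 1.42.0, its size factors, no filter, no minimum fold, a replicate block, 6 libraries only and each library left out were alternatives, and leaving out replicate 1 of every group was added after seeing the data. Total counts, 19915222 to 37158661, set the precision for genes of few reads. Symbols, positions and exon lengths came from GENCODE vM21, in which 49412 of 49671 identifiers were found, and shared sequence was sought with blastn 2.17.0 (75 bases, 95% identity). Only Dll1 (17.5% of its longest transcript), Notch1 (14.6%) and Notch3 (7.45%) shared such sequence with another gene. Plots were made in matplotlib 3.10.9 (Python 3.11.15).

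The members, lists and tests were chosen with earlier results of these data known. Named genes are all 10 members. Of the other lists they are, per comparison, up to 3 called genes in each direction with the largest change among those whose groups did not overlap, plus Notch2, Dll4, Rbpj, Hes5, Heyl and Nrarp, and each member's nearest gene among those lists; the nearest other member was added after its values were seen. Dtx1, Hey2 and others called beyond that are counted only; Adam10 was named after its values were seen.

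Replicate numbers come from the sample titles. Deviations from the group means of same-numbered libraries correlated across genes of at least 10 CPM in every pair of every comparison. The mean r was 0.466 to 0.786, against -0.291 to -0.187 for different numbers, so the numbers were taken to pair the libraries. The main fit left this pairing out, and the replicate block was an alternative to it. Calls of the 10 genes that changed with the block are given with the results.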

Additional observations from a re-analysis of the deposited data

How the results depend on the processing

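Of 640 values of the 10 genes under the alternatives, 594 kept their direction and their side of the threshold, 15 lost and 23 gained a call, and 8 changed sign, none of them called. The replicate block changed no call of these genes other than those of Notch1, Dll1 and Notch3 given above. Between CH and DMSO the members called went from 6 to 5 with the block, with only the 6 libraries compared and without replicate 1 of every group. With a library left out they ranged from 5 to 7 there. With 4OHT they ranged from 6 to 8 with a library left out, against 7 in the main fit. Between 2i and CH the members called went from 1 to 2 with DESeq2, with no filter on low counts, with the block, with no minimum fold and without replicate 1 of every group (an alternative chosen after seeing the data), and ranged from 1 to 3 with a library left out. The other pathway genes called there went from 3 to 5 with the block and without replicate 1 of every group, to 0 with only the 6 libraries compared, and ranged from 1 to 2 with a library left out.

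Between Fgf2/Activin and DMSO the members called went from 1 to 2 with the size factors of DESeq2, no filter or no minimum fold, to 3 with DESeq2, with the block and without replicate 1 of every group, and to 0 with only the 6 libraries; they ranged from 0 to 1 with a library left out. The other pathway genes went from 1 to 2 with DESeq2 or no filter, 3 with the block, 4 without replicate 1 of every group and 0 with the 6 libraries. With no minimum fold they numbered 17 between CH and DMSO, 18 between 2i and Fgf2/Activin and 25 with 4OHT. With a library left out they ranged from 8 to 11 between CH and DMSO, against 10 in the main fit. Between 2i and Fgf2/Activin they ranged from 8 to 10, against 11, and with 4OHT from 5 to 7, against 7. The cause was not tested.

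Sign changes between 2i and CH were Jag1 without replicate 1 of CH (-0.039, range -0.039 to 0.21 with a library left out) and Notch3 without replicate 1 of 2i (-0.21), 2 of CH (-0.053) or 3 of CH (-0.033, range -0.21 to 0.34). Between Fgf2/Activin and DMSO it was Hes6 without replicate 3 of DMSO (-0.016, range -0.016 to 0.46). Between 2i and Fgf2/Activin they were Notch1 without replicate 1 of Fgf2/Activin (0.14, range -0.24 to 0.14) or of every group (0.22) and Hes1 without replicate 1 of 2i (-0.024, range -0.024 to 0.48). The genes called over all genes went from 326 to 605 with DESeq2, 672 with the block, 100 with the 6 libraries and 768 without replicate 1 of every group between 2i and CH, and to between 144 and 275 with a library left out. Between Fgf2/Activin and DMSO they went from 205 to 379, 424, 87 and 499, and to between 112 and 171. Without replicate 1 of every group Dll1 was at 0.95 with 4OHT, below the minimum fold. Notch4, Hes7, Dll4, Dlk1 and Mfng rest on few reads, so depth limits their fold changes.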
